A study of Arabidopsis thaliana with 8 samples.

Results

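GSTU25 (AT1G17180), GRX480 (AT1G28480) and GR1 (AT3G24170) are 3 Arabidopsis thaliana genes of the glutathione system, encoding a glutathione transferase, a glutaredoxin and a glutathione reductase. They were found by symbol and locus in the probe annotation, where each had 1 probe set of its own, among 13356 genes with a probe set of their own. Earlier values of the comparison between the groups of arrays led to their choice, so their differences between those groups are given as a description, with no test. Total RNA from cell cultures of the Ler accession (Landsberg erecta, stock NW20) had been labelled with biotin and hybridised to 8 arrays, 4 named fum and 4 named met and numbered 1 to 4 in each group. Culture conditions were shared by all arrays: Murashige and Skoog medium, sucrose as nutrient, 24 °C, and the hormones NAA (a synthetic auxin) and kinetin (a cytokinin). The labels do not expand either name, call neither group a control, and name no genotype, agent or time that separates them. Every difference below is fum minus met. By its title, the series sets the arrays in a search for core regulators of plant programmed cell death. Separate cultures are not named for the arrays within a group, and p-values may reflect technical spread alone.

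Glutathione is a small sulphur-containing peptide that serves plant cells as a redox buffer and as a tag for reactive or foreign compounds. Glutathione transferases join it to electrophilic compounds, and the tau class, to which GSTU25 belongs, is specific to plants and includes many genes induced by xenobiotics. Glutaredoxins use reduced glutathione to reduce disulphides or to bind iron-sulphur clusters. GRX480, also called ROXY19, belongs to a land-plant class of glutaredoxins, binds TGA transcription factors and restrains jasmonate-induced defence genes when overexpressed. Glutathione reductase returns oxidised glutathione to its reduced form with NADPH, and GR1 is the cytosolic and peroxisomal enzyme.

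The deposited values were MAS5 signals, which are linear brightness values per probe set, and the median signal of the 8 arrays ran from 33.1 to 41.5. The number of arrays limits the precision. Met replicate 1 had a 3′ to 5′ signal ratio of 12.0 for the actin control, against 1.92 to 2.39 on the other 7 arrays. For the GAPDH control its ratio was 5.41, against 1.40 to 2.02 on those 7. Signal of 25S ribosomal RNA was low on 3 arrays, at 157.6 (fum replicate 3), 824 (met replicate 1) and 1305 (met replicate 2), and lay between 2806 and 4491 on 5. A probe set was tested when its mean log2 signal corresponded to a signal above 21.1. Among 7471 genes tested with limma, 1.41% were called higher in fum and 0.776% lower at an adjusted p under 0.05. The 4 arrays of fum lay above all 4 of met for 5.80% of the genes and below them for 5.74%. Of 4 leaf cell markers, 1 had a probe set of its own, RCA (Rubisco activase), at 383 to 464 signal units in fum and 470.5 to 588 in met (log2 -0.29, limma adjusted p = 0.155). Of 4 root and root hair markers, EXPA7 and EXPA18 had probe sets, both under the filter signal by their means. The 4 embryo and seed markers and the 4 tracheary element markers had no probe set of their own in the annotation used here.

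GSTU25 was higher in every fum array than in any met array. Its signal was 67.4, 83.1, 152.7 and 140.5 on fum replicates 1 to 4. On met replicates 1 to 4 it was 29, 38.6, 50.4 and 33. The lowest fum array, replicate 1, stood 1.34 times above the highest met array, replicate 3, so the groups did not overlap. The group means were 111 ± 42.0 for fum, against 37.8 ± 9.31 for met (SD, n = 4), and the geometric means differed 2.83-fold (log2 1.50). That contrast chose the gene, and 5.80% of all genes tested had every fum array above every met array. In bulk RNA, fewer cells expressing a gene and less of its RNA per cell cannot be told apart.

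**Figure D1:**
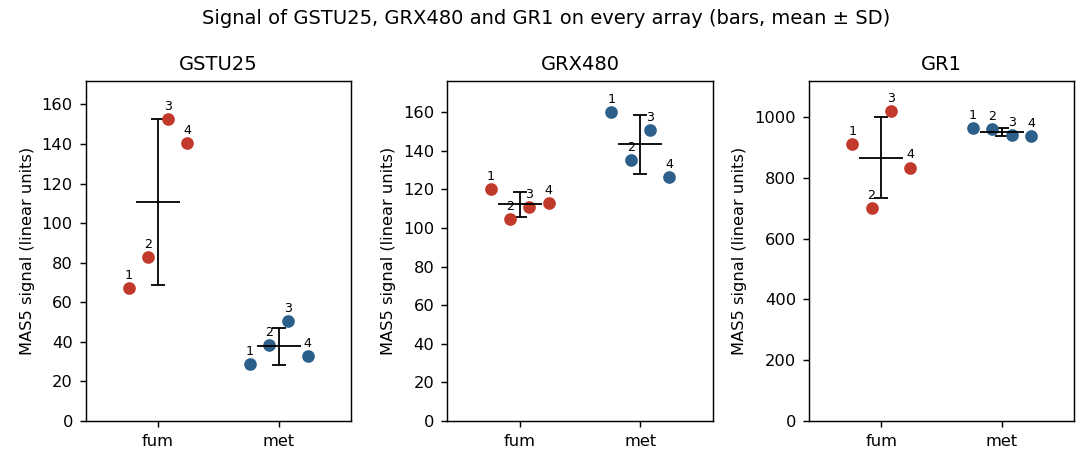
Linear MAS5 signal (vertical axes, from 0) of GSTU25, GRX480 and GR1 on the 4 fum and 4 met arrays, each point 1 array with its replicate number, and bars the mean and SD. GSTU25 sits at 67.4 to 152.7 in fum and at 29 to 50.4 in met, GRX480 sits lower in fum without overlap, and the 4 fum values of GR1 span those of met.

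The fum arrays differed widely among themselves in GSTU25. Replicates 3 and 4 read 152.7 and 140.5, while replicates 1 and 2 read 67.4 and 83.1, so the highest fum array was 2.27 times the lowest. In met the corresponding ratio was 1.74. The SD of GSTU25 within groups was 0.47 on the log2 scale, larger than that of 94.8% of 3376 tested probe sets within 0.5 log2 units of its mean signal, and the median over all probe sets tested was 0.22. The highest GSTU25 value was on fum replicate 3, the array with the lowest 25S signal (157.6). Without that array the log2 difference was 1.32, and over the 5 arrays with high 25S signal it was 1.18. The lowest value, 29, was on met replicate 1, the array with the actin ratio of 12.0, and without it the difference was 1.39. With 16 added to every signal, which damps differences of dim probe sets, it was 1.19.

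GRX480 was lower in every fum array than in any met array, by a much smaller step. It read 120, 104.7, 111 and 113.1 on fum replicates 1 to 4. On met replicates 1 to 4 it read 160.3, 135.2, 150.9 and 126.6. The lowest met array, replicate 4, stood 1.06 times above the highest fum array, replicate 1. The median signal of all probe sets was 37.4 on met replicate 4 and 35.1 on fum replicate 1. Relative to these array medians the GRX480 groups overlap, so the separation holds for the deposited signals only. Means were 112 ± 6.31 for fum, against 143 ± 15.2 for met (SD, n = 4), 1.27-fold higher in met by geometric means (log2 -0.35). This contrast was known when the gene was chosen, and 5.74% of all genes tested had every fum array below every met array. Its SD within groups was 0.12 on the log2 scale, and 15.2% of 3088 probe sets of like signal had a smaller one. The highest value was on met replicate 1, and without that array the difference was -0.29.

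GR1 did not separate the groups. It read 909.8, 701, 1019.5 and 833.7 on fum replicates 1 to 4. On met replicates 1 to 4 it read 962.2, 960.5, 939.2 and 938.2. The fum arrays thus lay on both sides of met, with replicate 3 above every met array and replicates 1, 2 and 4 below. Means were 866 ± 134 for fum, against 950.0 ± 13.1 for met (SD, n = 4), with a log2 difference of -0.15. The met arrays agreed closely, at an SD of 0.02 on the log2 scale, and 0.531% of 565 probe sets of like signal had a smaller SD in met. In fum the SD was 0.23, larger than that of 92.9% of those probe sets. The difference depended on single fum arrays. It was -0.05 without fum replicate 2, -0.23 without fum replicate 3, and -0.07 after quantile normalization.

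Of the 5 tau genes above the filter signal, GSTU25, chosen for its value, was the only one with a higher mean in fum. Of 28 tau genes listed, 11 had a probe set of their own, and 5 of these, GSTU25 included, were above the filter signal. The other 4 all had lower means in fum, and none was called by limma in either direction. Of these, 1 had an unadjusted p under 0.05, lower in fum. Among all 7471 genes tested, 50.6% had lower means in fum, 105 were called higher and 58 lower. At an unadjusted p under 0.05, 641 were higher and 596 lower. GSTU27 read 152.7, 190.6, 144.8 and 181.7 on fum replicates 1 to 4 and 386.8, 203.6, 276.4 and 241.9 on met replicates 1 to 4. The groups did not overlap, and met exceeded fum 1.62-fold (log2 -0.70, limma adjusted p = 0.0709). GSTU27 passed, as lower in fum, without met replicate 2 (adjusted p = 0.0332), in the 5 arrays with high 25S signal (adjusted p = 0.0347) and with array weights (adjusted p = 0.0134). Its highest value, like that of GRX480, was on met replicate 1, and without it the log2 difference was -0.52 (adjusted p = 0.0743).

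GSTU16 had 50.8 ± 7.10 in fum against 62.4 ± 9.71 for met (SD, n = 4, log2 -0.29, limma adjusted p = 0.371). GSTU15 had a log2 difference of -0.31 (adjusted p = 0.483) and GSTU18 one of -0.08 (adjusted p = 0.909), and in all 3 the groups overlapped. The sign for GSTU18 turned when fum replicate 3 or met replicate 1 or 4 was left out. Whether GSTU25 differed from these tau genes in its response was not tested, because GSTU25 was chosen for its value.

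GSTU25 lies between GSTU24 and GSTU26 in the gene order of the RefSeq TAIR10.1 annotation. GSTU26 read 2.6 to 16.9 in fum and 4.7 to 8.7 in met, under the filter signal on all 8 arrays. GSTU24 has no probe set of its own in the annotation used here, and whether its transcript adds to the GSTU25 signal was not tested. GSTU20, GSTU21, GSTU22, GSTU23 and GSTU28 also stayed under the filter by their means. GSTU28 read 16.6 to 19.6 in fum and 4.7 to 17.4 in met, so its groups overlapped. By log2 difference, GSTU28 (0.92) and GSTU23 (0.40) were higher in fum, and GSTU20, GSTU21, GSTU22 and GSTU26 were lower. The groups overlapped in all of these dim genes. The only tested gene of the phi, lambda and other transferase classes was GSTL3, a lambda member, at 128 ± 5.01 in fum against 122 ± 9.75 for met (SD, n = 4, log2 0.07, limma adjusted p = 0.760).

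GRX480 was 1 of 6 tested genes in the glutaredoxin list of 14, in which 8 had a probe set of their own. None of the other 5 was called by limma, and 1 had an unadjusted p under 0.05, lower in fum. Among all 7471 genes tested, 105 were called higher and 58 lower, with 641 higher and 596 lower at an unadjusted p under 0.05. The glutaredoxin with an unadjusted p under 0.05 was AT5G20500. It read 1096, 1074, 1063 and 1021 on fum replicates 1 to 4 and 1445, 1235, 1220 and 1157 on met replicates 1 to 4. In the deposited signals its groups did not overlap either (log2 -0.24, limma adjusted p = 0.167). Relative to the array medians they overlap, as those of GRX480 do. Like GRX480, AT5G20500 was highest on met replicate 1, while the order of the other arrays within each group differed. The root mean square distance between their log2 profiles, each centred on its own mean over the 8 arrays, was 0.09, the smallest from GRX480 to any of the other tested transferase, glutaredoxin and reductase genes. GRXC1 and GRXC2, glutaredoxins of the classical type, had log2 differences of -0.37 (adjusted p = 0.402) and -0.09 (adjusted p = 0.790). GRXC1 read 49.4 on fum replicate 2 and 89.2 to 94.8 on the other fum arrays, and without that array its difference was -0.15. AT2G20270 had -0.15 (adjusted p = 0.723) and AT1G77370 0.22 (adjusted p = 0.521). ROXY1 and ROXY2, relatives of GRX480 known from petal and anther development, were under the filter signal by their means, at 3 to 13 and 3.1 to 14.2 over the 8 arrays. PDF1.2, the defensin gene that GRX480 can restrain, was also under it, at 2.7 to 5.9 in fum and 5.5 to 10.2 in met. No TGA factor had a probe set of its own in the annotation used here.

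GR1 could be set beside GR (AT3G54660, also ATGR2), the organellar glutathione reductase. GR read 135.3, 144.3, 129.6 and 137.9 on fum replicates 1 to 4 and 158.8, 167.4, 201.4 and 164.4 on met replicates 1 to 4. Unlike those of GR1, its groups did not overlap, with a 1.26-fold higher signal in met (log2 -0.33, limma adjusted p = 0.130). GR passed, as lower in fum, with array weights (adjusted p = 0.0353). RCA, the leaf marker, was also lower in fum without overlap, and its part in the results for GR and GRX480 was not tested. These were the only 2 of 14 listed genes of glutathione synthesis, reduction and breakdown with probe sets of their own.

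The partners of these enzymes in peroxide removal, thiol reduction, sulphate assimilation and NADPH supply held no call by limma among 10 tested genes. Of these, 3 had an unadjusted p under 0.05, each lower in fum. Among all 7471 genes tested, 105 were called higher and 58 lower. At an unadjusted p under 0.05, 641 were higher and 596 lower. SAPX, the stromal ascorbate peroxidase, had 594 ± 45.2 in fum against 703 ± 24.5 for met (SD, n = 4, log2 -0.25, adjusted p = 0.155). TAPX, the thylakoid form, had a log2 difference of -0.41 with overlapping groups (adjusted p = 0.365). TO1, a mitochondrial thioredoxin, had -0.26 without overlap (adjusted p = 0.233), and the plastid thioredoxin reductase NTRC -0.08 (adjusted p = 0.727). In the NADPH list AT1G64190 read 120 to 197 in fum and 217 to 278 in met (log2 -0.58, adjusted p = 0.0751), and AT5G41670 had -0.23 (adjusted p = 0.281). The sulphite reductase gene SIR had -0.02 (adjusted p = 0.929), and cICDH of the NADPH list -0.10 (adjusted p = 0.585). Higher means in fum were found for ATMDAR2 of the ascorbate list (log2 0.14, adjusted p = 0.603) and AT3G02360 of the NADPH list (log2 0.04, adjusted p = 0.873).

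Of 13 listed electrophile- and xenobiotic-responsive genes, 4 had a probe set of their own and were tested. Of these 4, 2 were called higher and none lower by limma. At an unadjusted p under 0.05, 2 were higher and 2 lower. The list was written with earlier results of these data known, so its counts and p-values are a description, not independent evidence. Over all genes tested, 1.41% were called higher and 0.776% lower. UGT73B5, a glucosyltransferase, was higher in every fum array, at 71.8 to 96.9 against 40.9 to 53 in met (1.82-fold, limma adjusted p = 0.0131). Its close relative UGT73B4 read 104.5, 109.4, 144.8 and 126.7 on fum replicates 1 to 4 and 62.9, 82.3, 87.3 and 53.2 on met replicates 1 to 4. It rose 1.72-fold (log2 0.78, adjusted p = 0.0429), and, as in GSTU25, fum replicates 3 and 4 were the highest. The call of UGT73B4 did not hold without fum replicate 1, 2, 3 or 4 or met replicate 1 or 4 (adjusted p up to 0.133), nor did that of UGT73B5 without fum replicate 4 (adjusted p = 0.0600). Both calls were also lost with centring on the array median and with the replicate block, and that of UGT73B4 with quantile normalization, with no filter, without the intensity trend and in the 5 arrays with high 25S signal (adjusted p = 0.0502 to 0.119). AT2G04070 was lower in every fum array, at 81.9 to 106.8 against 121.3 to 157 in met (log2 -0.48, adjusted p = 0.0772). AT2G04050 had a lower mean in fum with overlapping groups (log2 -0.55, adjusted p = 0.124).

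**Figure D2:**
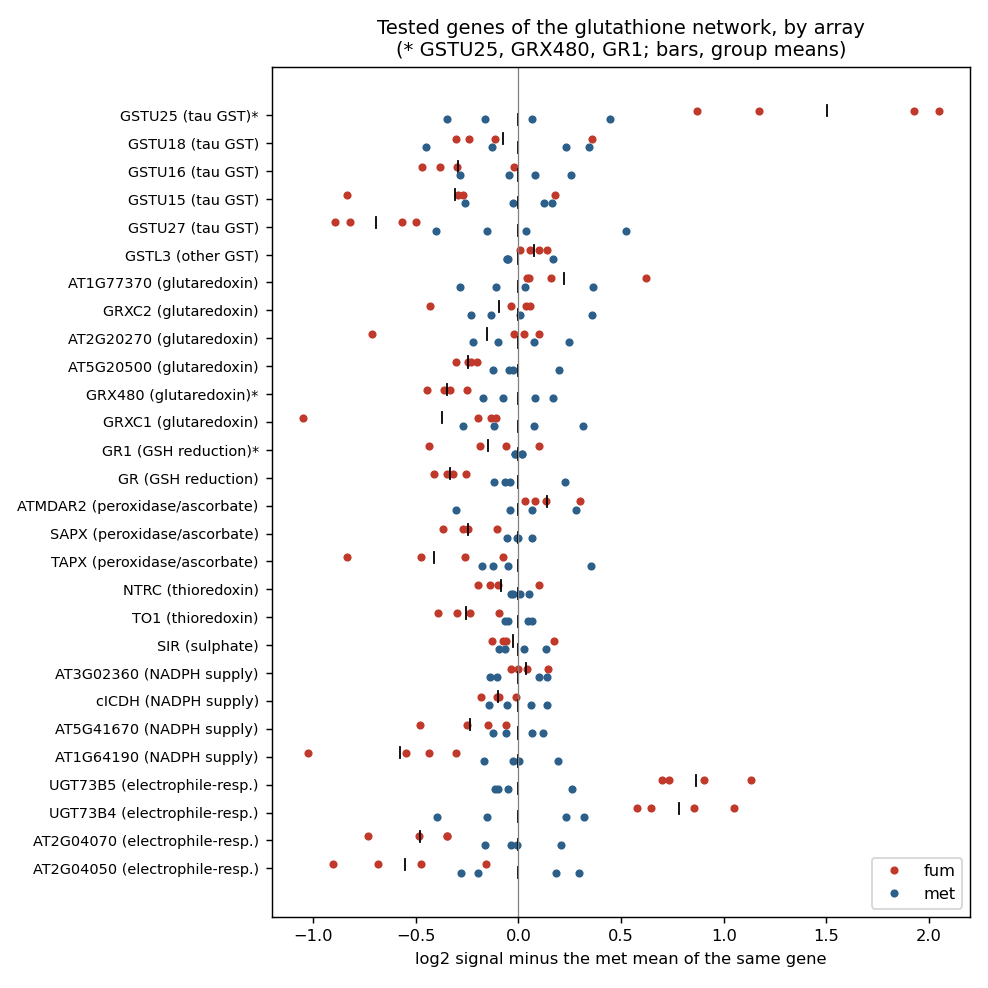
Log2 signal of each tested gene minus its own met mean (horizontal axis) for the 4 fum and 4 met arrays, with bars at group means and genes grouped by list. GSTU25, UGT73B5 and UGT73B4 lie to the right with no overlap between groups, while GRX480 and most of the transferases, glutaredoxins and reductases have fum means to the left of 0.

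Over all 11 lists, 161 genes were listed, 39 had probe sets of their own and 28 were tested, of which 25 are left without GSTU25, GRX480 and GR1. Of these 25, 2 were called higher and none lower by limma, with 2 higher and 8 lower at an unadjusted p under 0.05. Of all 7471 genes, 105 were called higher (1.41%) and 58 lower (0.776%), with 641 higher and 596 lower at an unadjusted p under 0.05. The count of none lower did not hold with array weights, where GSTU27, GR, AT1G64190 and AT2G04070 were called lower, nor without met replicate 2 or in the 5 arrays with high 25S signal, where GSTU27 was. Means were lower in fum for 19 of the 25 (76.0%), against 50.6% of all genes tested. The median log2 difference was -0.23, and over all genes tested it was -0.0036. All 4 fum arrays lay below all 4 met arrays for 7 of the 25 (28.0%), where 5.74% of all genes tested did so, and above them for 2 of the 25, against 5.80% of all genes. Genes that share arrays are not independent of one another. The lists were written with results of these data known. GRX480 and GR1 had lower means in fum, as 19 of the 25 had, and GSTU25 had a higher one. Whether any of them followed or departed from these lists was not tested, because they were chosen with their differences known.

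The genes whose profiles lay nearest to each of the 3 were found over all tested genes by the root mean square distance of centred log2 signals over the 8 arrays. For GSTU25 the nearest was AT1G50590, at 0.26, where the median over all tested genes was 0.89. AT1G50590 read 55.6, 75, 116 and 105.2 on fum replicates 1 to 4 and 23.9 to 30.7 in met, with the higher values on fum replicates 3 and 4 as in GSTU25. AT2G28710 and AT1G63220 followed at 0.34 and 0.35, with fum means of 177 ± 33.0 and 255 ± 76.4 and met means of 61.6 ± 15.3 and 112 ± 20.2 (SD, n = 4). For GRX480 the nearest were AT3G28940, AT1G36390 and AT3G09630, at 0.05, 0.06 and 0.07 against a median of 0.31. Each of these 3 was highest on met replicate 1, the array with the actin ratio of 12.0, as GRX480 was. For GR1 they were AT4G22750, AT1G20410 and AT2G03390, at 0.05, 0.06 and 0.06 against a median of 0.28, all with their lowest value on fum replicate 2. These genes were chosen for a small distance, so likeness on single arrays and distances under the median follow from that choice. A gene with small differences has many near neighbours on this measure, so the distances of GRX480 and GR1 are not to be set against those of GSTU25.

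**Figure D3:**
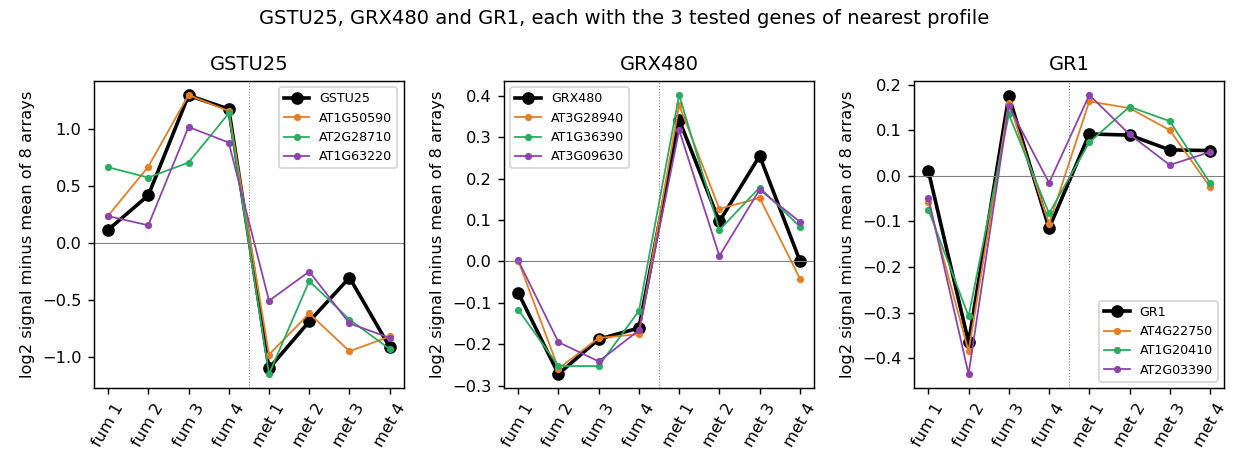
Log2 signal minus the mean of the 8 arrays (vertical axes, scaled per panel) for GSTU25, GRX480 and GR1 and the 3 tested genes nearest to each, with lines that only join the points of 1 gene. AT1G50590 follows GSTU25 at a distance of 0.26, the neighbours of GRX480 peak on met replicate 1, and those of GR1 dip on fum replicate 2.

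The direction of each of the 3 differences held under all 14 settings in which it was recomputed. The log2 difference of GSTU25 ranged from 1.18 to 1.71, that of GRX480 from -0.41 to -0.27 and that of GR1 from -0.23 to -0.05. The groups of GSTU25 and GRX480 did not overlap. Leaving out arrays, array weights or a constant added to every signal therefore could not turn their signs. For these genes only quantile normalization and centring on the array median could have done so. For GR1, leaving out 1 of 4 arrays, as 8 of these settings do, can shift a group mean only in part. The replicate block cannot move a difference in this balanced design. The ranges are a description of these arrays, not a test.

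**Figure D4:**
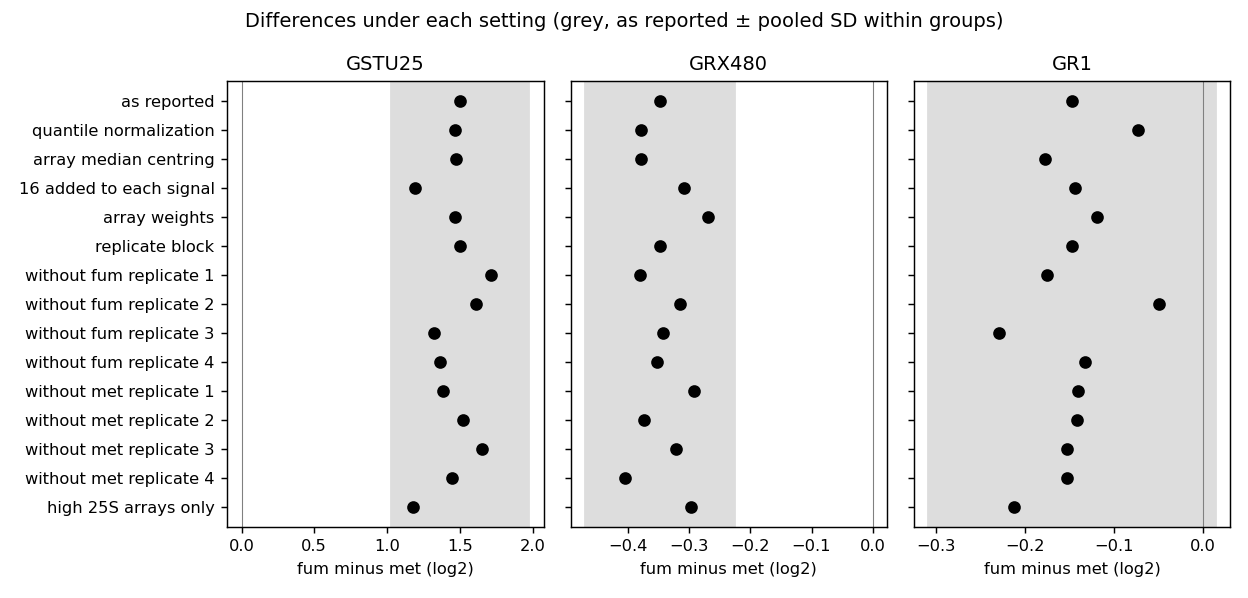
Difference between fum and met on the log2 scale (horizontal axes, scaled per panel) of GSTU25, GRX480 and GR1 as reported and under 14 other settings, with the reported value ± the pooled SD within groups in grey. No point crosses 0, and those of GR1 come nearest to it, at -0.05 without fum replicate 2.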

How the data were processed

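Per the submitters' processing notes, the authors made the values with MAS5, with no version given. The deposited table holds linear signal intensity for 22810 probe sets on 8 arrays. The mean of each array between its 2nd and 98th percentile was 99.5 to 99.8, as scaling to one target gives. MAS5 works on each array alone, and its low signals are noisy.

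From these values, 93 zeros were set to the smallest positive signal, 0.1, before log2 was taken with no pseudocount. After 64 control probe sets were left out, 13647 probe sets above the 40th percentile of mean log2 signal were tested. The comparison of fum and met used lmFit and eBayes with an intensity trend from limma 3.58.1 (R 4.3.3), with two-sided p-values adjusted by Benjamini-Hochberg across those 13647. Called means an adjusted p under 0.05, and 351 probe sets and 163 of 7471 genes were called. A gene was read by its brightest probe set. Names came from the supplied annotation, which pairs 13513 probe sets with 1 gene, 503 with several and lists none for 8794. Of the probe sets with 1 gene, 13436 were matched to a gene in RefSeq TAIR10.1, whose symbol was used where it gave one. No probe set with several genes was named. The sources used here give no genome build for the array. No sequence was used here.

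GSTU25, GRX480, GR1 and the gene lists were chosen with earlier results of these data known. Named genes are these 3, all tested transferase, glutaredoxin and glutathione genes, and the 3 nearest profiles of each of these 3. From each other list come the called or else the up to 2 leading genes. AT2G04050, AT2G04070 and ATMDAR2, given with adjusted p, and cICDH and AT3G02360, whose signs turned, are named outside this rule. GSTU20 to GSTU23, GSTU26, GSTU28, ROXY1, ROXY2, PDF1.2 and marker genes, under the filter or outside this rule, are given as values only. The main comparison treated arrays with the same replicate number as unpaired. The deviations of such arrays correlated at -0.17, -0.30, -0.47 and 0.14 across probe sets. Low correlations of this kind cannot exclude that the arrays were paired. The procedure was tested on simulated arrays.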

Additional observations from a re-analysis of the deposited data

Results flagged for a closer look

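Among 78 groups of 4 arrays, from 39 genes, 4 held an array far from the other 3, where chance flags about 5% of groups. GSTL3 read 136.5 on met replicate 4, above the 116.8 to 117.2 of its group. GRXC1 read 49.4 on fum replicate 2, below 89.2 to 94.8 on the other fum arrays. AT2G20270 read 60 on that array and 96.9 to 105.6 on the others of its group. UGT73B5 read 53 on met replicate 2, above the 40.9 to 42.7 of its group. None of the 3 genes GSTU25, GRX480 and GR1 held such an array in either group. The low readings of GRXC1 and AT2G20270 fell on the array where GR1 was also lowest, at 701.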

How the results depend on the processing

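The count of 351 called probe sets became 112 after centring each array on its median, 164 without the intensity trend, 1323 with array weights, 115 with the replicate block and 575 in the 5 arrays with high 25S signal, a division chosen after seeing the data. Leaving out 1 array gave 112 to 415. The smaller counts came on omitting fum replicate 1 (175), 3 (168) or 4 (112) or met replicate 3 (154) or 4 (151). The count of 2 called list genes became 1 after quantile normalization, with no filter or without the trend, 0 with centring or the replicate block, and 6 with array weights, 4 of them lower in fum. Leaving out 1 array gave 0 (without fum replicate 4) to 3 (without met replicate 2), and 1 without fum replicate 1, 2 or 3 or met replicate 1 or 4. The cause was not tested. With fewer arrays the fit also has fewer samples. The replicate block left the differences of GSTU25, GRX480 and GR1 as they were.

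Signs near 0 turned for cICDH after quantile normalization (log2 0.071) and for AT2G20270 with array weights (0.049). In the 5 arrays with high 25S signal they turned for GSTL3 (-0.0034) and GRXC2 (0.038). Leaving out 1 array gave -0.17 to 0.026 for GRXC2, -0.24 to 0.035 for AT2G20270, -0.23 to 0.039 for GSTU18, -0.090 to 0.020 for SIR and -0.0091 to 0.085 for AT3G02360. Signals under the filter limit what can be said of 11 of the 39 genes.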
